A study of Mus musculus with 14 samples.

Results

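The genes described here encode the 3 CIDE proteins (Cidea, Cideb and Cidec) and the 5 perilipins (Plin1 to Plin5), which coat lipid droplets, in mouse liver under 3 diets. They were taken as all probes on the array that carry the name, an older name or the RefSeq record of one of these genes. This gave 8 genes of the 36096 on the array, each with 1 probe. In that count a probe without a RefSeq match stands as a gene under its name in the files. Of 32675 genes tested, 15232 had a matched symbol, so ranks and shares over all genes include unmatched names. The set was chosen by its log2 ratios over the 3 diets, so its differences between diets, and the counts of its genes past a threshold, are given as a description and not as tests of the set. Liver RNA of 14 male C57BL/6 mice aged 1 year was hybridised to 2-colour Agilent whole-genome arrays, 1 mouse per array. Of these, 5 mice ate AIN-93G standard diet, 5 ate a high-calorie form of it that drew 60% of calories from fat, and 4 ate the high-calorie form with 0.04% resveratrol added, a plant polyphenol. Below, the 3 groups go by the names standard-diet mice, high-calorie mice and resveratrol mice. The dye Cy3 marked the RNA of the mouse, and Cy5 marked a reference labelled as a pool of 5 standard-diet livers. Values are log2 ratios of mouse to pool, so 1 unit is a 2-fold difference, and errors are SDs over mice or SEs of a fit to all genes. Nothing in the labels names the cages or litters, so the spread covers these mice only.

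A lipid droplet is a core of triglyceride and cholesteryl ester under a single layer of phospholipid, and the proteins on that layer set how the fat is stored and released. Perilipins shield the core from lipases, with PLIN2 and PLIN3 found in most tissues, PLIN5 in tissues that burn fat, and PLIN1 and PLIN4 mainly in fat cells. CIDEC and CIDEA gather where droplets touch and pass lipid from the smaller to the larger, so that droplets grow, while CIDEB is the CIDE protein of normal liver and acts in loading lipoproteins with lipid. In fatty liver, hepatocytes can take up droplet proteins otherwise typical of fat cells, and several of these genes are targets of PPAR receptors.

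The pool stood apart from its label. All 5 standard-diet mice lay below it for Cidea, Cidec, Plin2, Plin4 and Plin5, although the pool is labelled as standard-diet liver. With the standard-diet mean set to 0 and the high-calorie mean to 1 on the log2 scale, the pool was at 0.75 for Cidea, 0.53 for Cidec, 0.56 for Plin2, 0.69 for Plin4 and 0.80 for Plin5. It was at -0.14 for Cideb and -0.69 for Plin3, below the standard-diet mean, and at 0.37 for Plin1, where the diets differed little. Over the 107 genes that differed between these diets by more than 2-fold and passed the test, the median place of the pool was 0.543, or 0.598 for the 78 higher and 0.368 for the 29 lower genes. With median centring in place of loess these 3 medians were 0.716, 0.902 and -0.0909, and the pool was at 0.889 for Cidea, 0.767 for Cidec, 1.17 for Plin2 and 1.04 for Plin4. No array had the dyes swapped, so a probe's dye effect and the content of the pool cannot be told apart. The labels do not say whether 1 pool served all arrays, and a pool and a dye effect shared by all arrays cancel in the differences between diets. The Cy3 channel alone was read as the scanner's processed Cy3 signal, not divided by that of the pool. Whether that processing drew on Cy5 was not tested. By this signal, Cidea, Cidec, Plin2 and Plin4 were higher in high-calorie than in standard-diet mice by 4.90, 2.28, 1.11 and 1.43 on the log2 scale.

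All 8 genes were well above background in both channels on all 14 arrays, and no spot of theirs was saturated or marked as an outlier. The share of probes well above background was 77.9% to 88.3% for standard diet, 83.6% to 91.8% for the high-calorie diet and 82.0% to 92.4% with resveratrol. The median net Cy3 signal was 48.6 to 85.6, 57.7 to 114 and 65.9 to 100.2 intensity units in that order. Of the hepatocyte markers, 10 of 12 were tested, and their summed signal, scaled to each array's 75th percentile, was 1532 to 2149 on standard diet, 1203 to 1995 on the high-calorie diet and 1513 to 2282 with resveratrol. Alb and Ttr, defining genes of hepatocytes, were well above background on every array. Because these are whole-liver RNAs, a change in the number of cells of a type and a change in RNA per cell cannot be told apart.

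Cidea, normally a gene of brown fat, had the highest log2 difference of all 32675 genes tested when high-calorie mice were set against standard-diet mice. Its log2 ratio was -3.13, -1.98, -3.55, -3.40 and -3.40 in the 5 standard-diet mice and 1.20, 0.52, 1.02, 0.96 and 1.41 in the 5 high-calorie mice. It was -0.70, -0.09, -3.64 and 0.09 in the 4 resveratrol mice. The high-calorie mice were all above the standard-diet mice, and resveratrol replicate 3 lay below every standard-diet mouse while the other 3 resveratrol mice lay between both groups. The net Cy3 signal was 59.3 to 185 intensity units on standard diet, 2103 to 6192 on the high-calorie diet and 54.5 to 1210 with resveratrol, against 2414 to 3584 for the pool on the same arrays. High-calorie mice exceeded standard-diet mice by 4.11 ± 0.56 (SE), which is 17.3-fold, and the difference was 2.65 without background correction, 4.76 with an offset of 1 and 4.91 with the scanner's processed signals. Resveratrol mice differed from high-calorie mice by -2.10 ± 0.59 (SE), or by -1.26 without resveratrol replicate 3. The SD of Cidea within diets, pooled over the 3 diets, was 1.00, at percentile 99.96 among all genes tested. By diet it was 0.64 on standard diet, 0.33 on the high-calorie diet and 1.73 with resveratrol.

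Cidec, which in fat cells drives the formation of single large droplets, showed the same order of diets with little spread among standard-diet mice. Its log2 ratio was -1.12, -1.01, -1.23, -1.15 and -1.14 in standard-diet mice (mean -1.13 ± 0.08 SD, n = 5) and 1.23, 0.71, 1.08, 0.97 and 0.96 in high-calorie mice (0.99 ± 0.19 SD, n = 5). In resveratrol mice it was -0.16, 0.51, -0.85 and -0.21 (-0.18 ± 0.55 SD, n = 4). The 3 groups did not overlap, and the resveratrol mice filled the gap between the others. High-calorie mice were higher than standard-diet mice by 2.12 ± 0.18 (SE), which is 4.35-fold and rank 8 of all genes tested. Resveratrol mice were lower than high-calorie mice, at -1.17 ± 0.19 (SE), and higher than standard-diet mice, at 0.95 ± 0.19 (SE). Without background correction the difference between high-calorie and standard-diet mice was 1.29.

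Cideb, the CIDE gene of normal liver, showed no such order. Its log2 ratio ranged from -0.43 to 0.30 on standard diet, from -0.23 to 0.07 on the high-calorie diet and from -0.26 to 0.19 with resveratrol. The 3 groups overlapped. The difference between high-calorie and standard-diet mice was -0.08 ± 0.12 (SE), and that between resveratrol and high-calorie mice was 0.02, with a sign that turned in 10 of 29 other settings. Its median net Cy3 signal was 88.3 intensity units in standard-diet mice. Over all mice its net signal ran from 37.8 to 121, near the median net Cy3 signals of whole arrays, 48.6 to 114. At so dim a spot a difference between diets could be missed. Over other settings on the log2 scale the difference between high-calorie and standard-diet mice ran from -0.21 to 0.13.

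**Figure D1:**
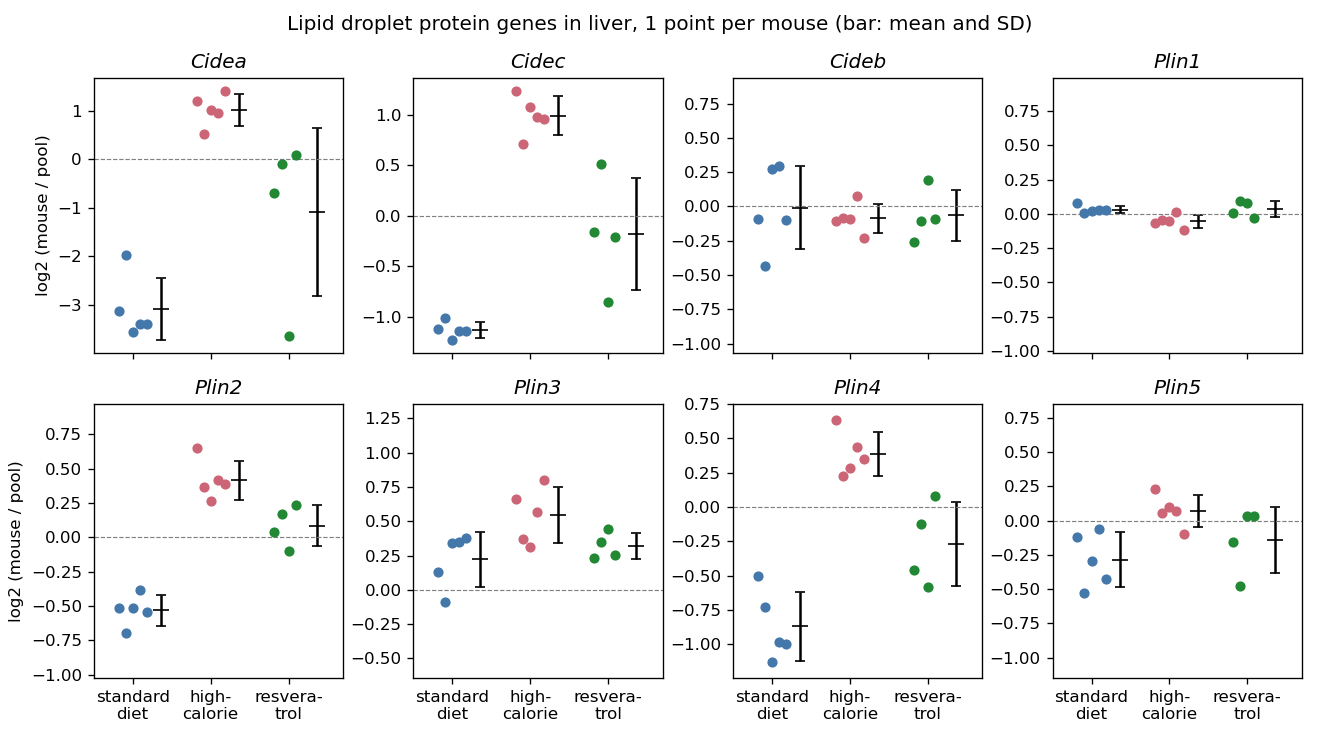
Log2 ratio of mouse to pool for the 8 genes, with 1 point per mouse (5 standard-diet, 5 high-calorie, 4 resveratrol) and the mean with its SD beside each group; the scale differs between panels and the dashed line marks the pool. Cidea, Cidec, Plin2 and Plin4 separate the 5 high-calorie from the 5 standard-diet mice, with resveratrol replicate 3 at -3.64 for Cidea, while the groups overlap for Cideb and Plin1.

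Plin2, the perilipin that marks fat in liver cells, differed by less than Cidec on the log2 scale. Its SD within diets was 0.134, against 0.315 for Cidec. Its log2 ratio was -0.52, -0.70, -0.51, -0.38 and -0.54 in standard-diet mice and 0.65, 0.36, 0.26, 0.42 and 0.39 in high-calorie mice. In resveratrol mice it was 0.04, 0.17, -0.10 and 0.24. As for Cidec the 3 groups did not overlap. High-calorie mice were higher than standard-diet mice by 0.95 ± 0.08 (SE), which is 1.93-fold. Resveratrol mice were at -0.33 ± 0.08 against high-calorie and at 0.62 ± 0.08 against standard-diet mice (SE). The net Cy3 signal was 1762 to 4456 intensity units on standard diet, 7109 to 14909 on the high-calorie diet and 3864 to 7149 with resveratrol.

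Plin4, a perilipin of fat cells that coats small new droplets, lay between Cidec and Plin2 in size. Its log2 ratio was -0.50, -0.73, -1.13, -0.99 and -1.001 in standard-diet mice and 0.63, 0.23, 0.28, 0.44 and 0.35 in high-calorie mice. In resveratrol mice it was -0.46, -0.12, -0.58 and 0.08. High-calorie mice did not overlap with either other group, while the lowest resveratrol mouse, replicate 3, lay below the highest standard-diet mouse. The difference was 1.26 ± 0.14 (SE) between high-calorie and standard-diet mice, which is 2.39-fold, or 0.67 without background correction. It was -0.66 ± 0.14 between resveratrol and high-calorie mice and 0.60 ± 0.14 between resveratrol and standard-diet mice (SE).

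Plin5, which ties droplets to mitochondria, and Plin3, the perilipin that also sits free in the cytosol, were somewhat higher on the high-calorie diet, with overlapping groups. Plin5 ranged from -0.53 to -0.06 on standard diet, from -0.10 to 0.23 on the high-calorie diet and from -0.48 to 0.04 with resveratrol. Its difference was 0.36 ± 0.11 (SE) between the high-calorie and the standard-diet mice and -0.22 between resveratrol and high-calorie mice, or -0.10 without resveratrol replicate 2. Plin3 ranged from -0.09 to 0.38, from 0.32 to 0.80 and from 0.24 to 0.44 in the same order of diets, with a difference of 0.32 ± 0.10 (SE) between high-calorie and standard-diet mice. Both kept these signs in all 30 other settings of that comparison. As a description, neither had an adjusted p under 0.05 in limma over all arrays, and both did with median centring. Plin5 also did with extraction day or replicate number as a block, with array weights and where all 14 arrays had to be well above background. Leaving out standard-diet replicate 4 or resveratrol replicate 2 or 3 did the same for Plin5. For Plin3, leaving out standard-diet replicate 5 or high-calorie replicate 3 did so.

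Plin1, the main droplet coat of white fat cells, had log2 ratios close to 0 in all mice. It ranged from 0.00 to 0.08 on standard diet, from -0.12 to 0.02 on the high-calorie diet and from -0.03 to 0.09 with resveratrol. The difference between high-calorie and standard-diet mice was -0.08 ± 0.04 (SE), but 0.12 with median centring and -0.60 with the Cy3 channel alone. Resveratrol mice minus high-calorie mice gave 0.09 for Plin1, but -0.01 with median centring and 0.48 with the Cy3 channel alone. The pool's own signal for Plin1 was 79.7 intensity units on the array of high-calorie replicate 4 and 287 to 425 on the other arrays. The mouse's net Cy3 signal on that array, 49.8, was also the lowest, against 106 to 202 on the others. The size for Plin1 differed with and without the ratio to the pool, and the part of this array in that was not tested. Its SD within diets, 0.045, was at percentile 4.2 among all genes tested, the lowest of the 8.

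**Figure D2:**
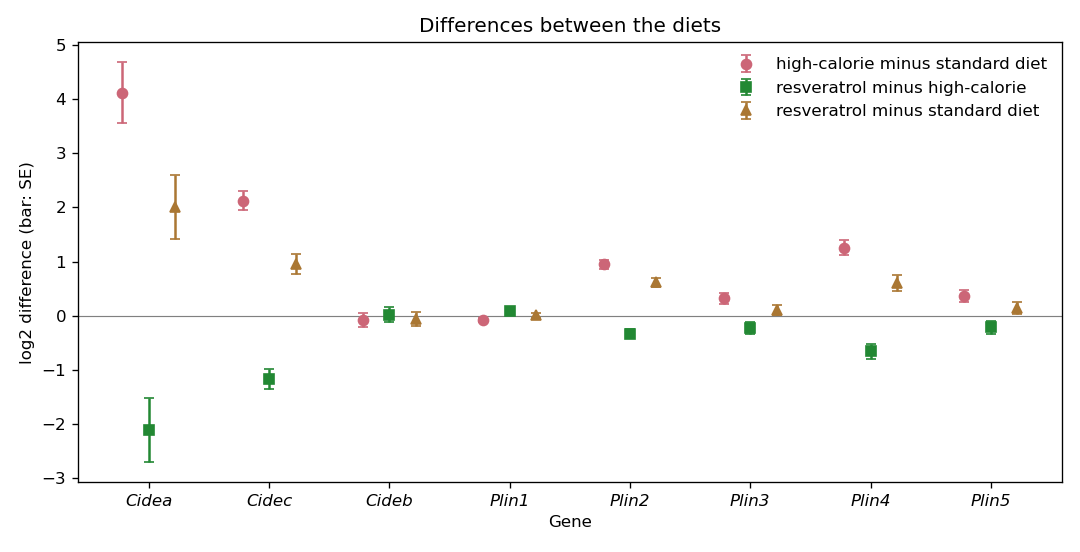
Log2 difference of each gene between diets, with its SE from the fit to all genes; circles show high-calorie minus standard diet, squares resveratrol minus high-calorie, and triangles resveratrol minus standard diet. Cidea spans 4.11 to -2.10, Cidec 2.12 to -1.17, and Cideb and Plin1 lie near 0 as ratios to the pool, although Plin1 was at -0.60 and 0.48 in the first 2 comparisons with the Cy3 channel alone.

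Across the set, a gene was called where its adjusted p, from limma with Benjamini-Hochberg adjustment over all 32675 genes, was under 0.05. Between high-calorie and standard-diet mice 4 of the 8 were called higher (Cidea, Cidec, Plin2 and Plin4) and 0 lower, where 5.37% of all genes were called higher and 4.07% lower. The same 4 were higher in every high-calorie than in every standard-diet mouse, as were 5.15% of all genes. The median difference of the 8 was 0.65, and that of all genes was -0.002. Between resveratrol and high-calorie mice 3 were called lower (Cidec, Plin2 and Plin4), against 2.22% of all genes called lower and 3.16% higher. Without overlap 4 were lower, Cidea being the one not called, against 6.15% of all genes. The medians were -0.28 for the 8 and -0.007 for all genes. Between resveratrol and standard-diet mice 1 was called higher, Plin2, against 0.125% of all genes called higher and 0.0888% lower. Cidec and Plin2 were higher without overlap, against 1.09% of all genes. These counts follow from the choice of the set and support nothing by themselves, and the comparisons share mice.

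Of the calls in resveratrol mice, those of Plin2 and Plin4 against high-calorie mice depended on single arrays. Cidec was called lower than in high-calorie mice, and Plin2 higher than in standard-diet mice, without any 1 of the 14 arrays. Cidec was the 1 gene of the set still called lower against high-calorie mice without high-calorie replicate 1 or without resveratrol replicate 1. Without resveratrol replicate 3, Cidea and Cidec were called lower, and Cidea, Cidec, Plin2 and Plin4 were called higher than in standard-diet mice. With the Cy3 channel alone 0 of the 8 were called in either comparison of the resveratrol mice. The 4 genes called between high-calorie and standard-diet mice were called in that comparison without any 1 of the 14 arrays.

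The 4 resveratrol mice differed among themselves, and resveratrol replicate 3 was the lowest of them for Cidea, Cidec, Plin2 and Plin4. For Cideb, Plin3 and Plin5 replicate 3 was instead the highest of the 4, with log2 ratios of 0.19, 0.44 and 0.04. With the standard-diet mean at 0 and the high-calorie mean at 1 on the log2 scale, that mouse was at -0.13 for Cidea, 0.13 for Cidec, 0.46 for Plin2 and 0.23 for Plin4. Resveratrol replicate 4 was at 0.77, 0.43, 0.81 and 0.76, and replicate 2 at 0.73, 0.77, 0.74 and 0.59, in the same order of genes. Replicate 1 was at 0.58, 0.46, 0.60 and 0.33 for these genes. Cd36, which brings fatty acids into the cell, put resveratrol replicates 1, 2, 3 and 4 at 0.33, 0.46, 0.08 and 0.70. The mean place of the 4 mice was 0.49 for Cidea, 0.45 for Cidec, 0.65 for Plin2, 0.48 for Plin4 and 0.39 for Cd36. In 4 of these 5 genes the highest mouse was replicate 4, and in Cidec it was replicate 2.

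**Figure D3:**
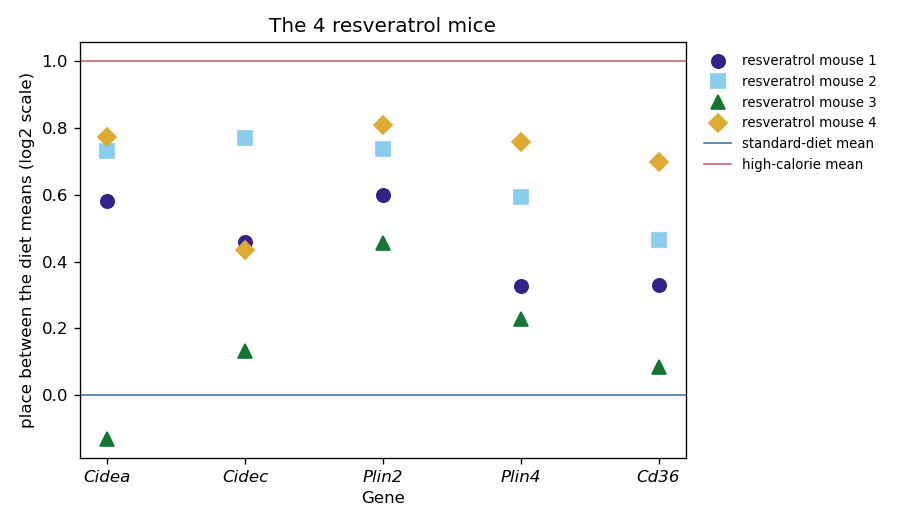
Place of each of the 4 resveratrol mice between the standard-diet mean (0) and the high-calorie mean (1), on the log2 scale, for 4 droplet genes and Cd36. Replicate 3 is the lowest mouse in all 5 genes, from -0.13 for Cidea to 0.46 for Plin2.

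Array images were processed by the scanner software on 2 days, and slide numbers fell into 2 series, divided at their largest gap. The standard-diet mice numbered 3 on day 1 and 2 on day 2, the high-calorie mice 2 and 3, and all 4 resveratrol mice were on day 1. Between high-calorie and standard-diet mice the difference for Cidea was 4.44 within day 1, 3.67 within day 2 and 4.08 within slide series 2. For Cidec these were 2.27, 1.99 and 2.05, for Plin2 1.00, 0.96 and 0.87, and for Plin4 1.41, 1.15 and 1.16. Between resveratrol and high-calorie mice the differences within day 1 were -2.16, -1.28, -0.45 and -0.81 in that order of genes, and within slide series 1 they were -2.49, -1.51, -0.47 and -0.86. Slide series 1 held 2 high-calorie and 3 resveratrol mice, and series 2 held 5 standard-diet, 3 high-calorie and 1 resveratrol mice. All these differences had the sign found over all arrays, but Cidea was not called within day 2, and 0 of the 8 genes were called against high-calorie mice within day 1 or slide series 1.

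**Figure D4:**
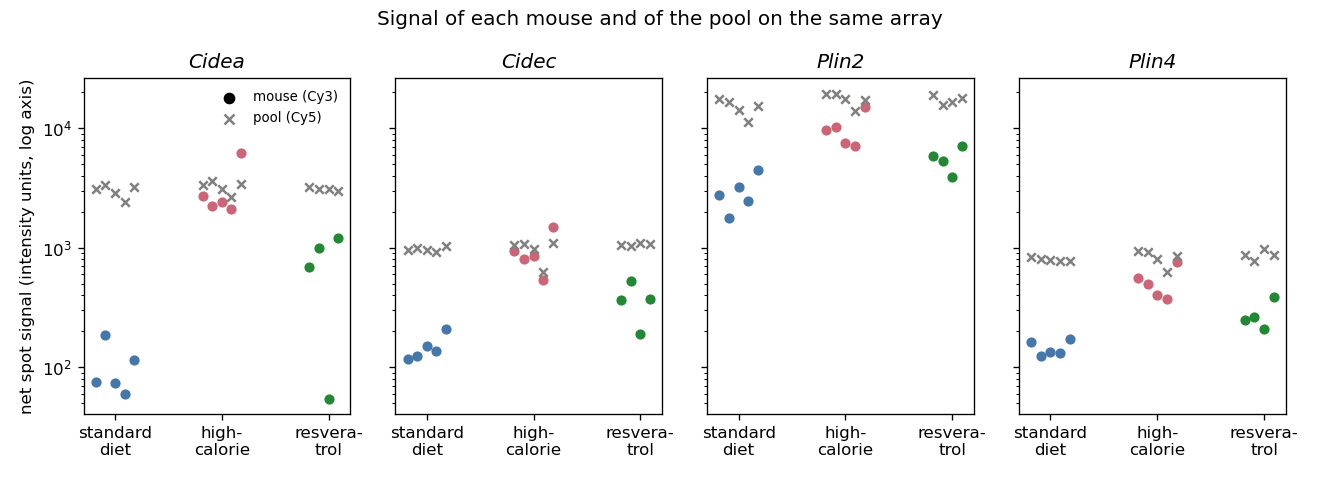
Net spot signal of each mouse (coloured points, Cy3) and of the pool on the same array (grey crosses, Cy5) for Cidea, Cidec, Plin2 and Plin4, in intensity units on a log axis. The pool's Cidea signal stays between 2414 and 3584 on all 14 arrays, far above the standard-diet mice at 59.3 to 185.

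The promoters of the genes that moved together are shown because PPAR receptors, known regulators of several droplet genes, bind with RXR to a DR1 element. DR1 was searched as 2 copies of AGGTCA in one direction with 1 base between them, on both strands and with up to 2 mismatches in the 12 half-site bases, in RefSeq promoters of build GRCm38.p6 from 250 bases before to 50 bases after each start. The table held 9 promoters of 7 of the 8 genes, and none was used for Cidea. One match was found, in Plin2, on the minus strand of the promoter as printed and with 2 mismatches, 225 to 213 bases before the start, while 3.86% of all 32851 promoters held such a match and 0.0396% an exact one. The 250 bases before the start follow for 3 of these promoters, those of Plin2, Plin4 and 1 of the 2 of Cidec, 5′ to 3′, in lower case with the match in capitals.
Plin2, chr4:86670060-86670309, minus strand: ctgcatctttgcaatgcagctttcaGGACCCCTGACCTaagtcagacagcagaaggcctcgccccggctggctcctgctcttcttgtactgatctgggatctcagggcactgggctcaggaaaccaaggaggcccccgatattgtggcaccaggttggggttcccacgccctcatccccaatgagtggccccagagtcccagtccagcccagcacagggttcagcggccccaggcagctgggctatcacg
Cidec, chr6:113435761-113436010, minus strand: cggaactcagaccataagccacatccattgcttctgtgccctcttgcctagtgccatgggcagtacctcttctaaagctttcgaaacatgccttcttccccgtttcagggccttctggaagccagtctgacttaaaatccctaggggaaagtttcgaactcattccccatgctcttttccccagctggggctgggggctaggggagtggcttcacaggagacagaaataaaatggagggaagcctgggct
Plin4, chr17:56109783-56110032, minus strand: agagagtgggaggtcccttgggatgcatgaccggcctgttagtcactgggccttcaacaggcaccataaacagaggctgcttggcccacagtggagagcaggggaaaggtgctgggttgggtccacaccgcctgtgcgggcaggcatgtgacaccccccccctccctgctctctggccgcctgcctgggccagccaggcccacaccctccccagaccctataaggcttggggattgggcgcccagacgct
The G and C share of these stretches was 61.6% for Plin2, 52.8% for this Cidec promoter (56.8% for the other) and 65.2% for Plin4. A match is a description of letters and shows no binding, and the absence of one in Cidec and Plin4 says only that these letters are not in this window.

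The genes with the most similar pattern were found among tested genes with a matched symbol, as those with the smallest root mean square difference over the 14 arrays after each gene was set to its standard-diet mean. For Cidec the nearest was Cd36, at 0.29, followed by the cytochrome P450 genes Cyp3a44 at 0.37 and Cyp3a16 at 0.39. For Cidea they were Cyp4a14, a fatty acid hydroxylase gene, at 0.95, Cyp2b9 at 1.15 and Cfd at 1.30. Of these Cfd did not share the position of the resveratrol mice, with a difference of 0.05 between resveratrol and high-calorie mice against -2.10 for Cidea. For Plin2 they included Pigp at 0.14 and Acadm, of mitochondrial fatty acid oxidation, at 0.16. For Plin4 they were Nt5e at 0.18, S100a10 at 0.19 and Raet1d at 0.24.

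Other lipid genes were read in 5 lists, whose counts stand beside the 5.37% of all genes called higher and 4.07% called lower on the high-calorie diet, and the 3.16% and 2.22% between resveratrol and high-calorie mice. At these list sizes 1 or 2 calls are a small count, and no list was tested against that background. The fatty acid uptake list held the largest rises on the high-calorie diet. Of its 14 genes 4 rose, 0 fell and 10 did not pass, with a median of 0.13. Cd36 rose by 2.26 ± 0.18 (SE, adjusted p = 2e-05), Fabp4, the fatty acid carrier of fat cells and macrophages, by 1.60 ± 0.31 and Fabp2, the intestinal carrier, by 1.37 ± 0.33. Vldlr, the receptor for very low density lipoprotein, rose by 0.17 ± 0.04. Without background correction Cd36 was at 1.18, Fabp4 at 0.95 and Vldlr at 0.05, and as the mean of all its probes Fabp4 was at 0.92. Cd36 was -0.05, -0.15, -0.45, -0.26 and 0.05 on standard diet, 2.10, 2.04, 2.18, 2.05 and 2.05 on the high-calorie diet and 0.57, 0.87, 0.01 and 1.41 with resveratrol. Between resveratrol and high-calorie mice 2 of the 14 fell, Cd36 by 1.37 ± 0.20 (SE) and Vldlr by 0.21 ± 0.04, and the median was -0.03. Fabp4 was at -0.09 ± 0.32 in that comparison. Between resveratrol and standard-diet mice 0 of the 14 passed, with Fabp4 at 1.51 and Cd36 at 0.89 (median 0.06).

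Of 15 genes that make triglyceride 2 rose on the high-calorie diet, 0 fell and 13 did not pass, with a median of 0.09. Gpat3, which adds the first acyl chain to glycerol phosphate, rose by 0.60 ± 0.06 (SE) and Mogat1, which acylates monoacylglycerol, by 0.47 ± 0.06. Both fell between high-calorie and resveratrol mice, Mogat1 by 0.47 ± 0.07 and Gpat3 by 0.29 ± 0.07, and 13 did not pass (median -0.14). Gpat3 lost that call in 11 of 29 other settings. Without background correction the rises were 0.16 for Gpat3 and 0.20 for Mogat1, and with the Cy3 channel alone 1.11 and 0.98. Between resveratrol and standard-diet mice 0 of 15 passed, with Gpat3 at 0.31 and Dgat2, of the last step of triglyceride synthesis, at -0.19 (median -0.004).

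Genes of triglyceride breakdown showed 3 rises among 13 on the high-calorie diet, with 0 falls, 10 that did not pass and a median of 0.15. Ces1g, a carboxylesterase gene, rose by 0.87 ± 0.19 (SE), Mgll, the monoacylglycerol lipase gene, by 0.55 ± 0.15, and Hilpda, an inhibitor of adipose triglyceride lipase, by 0.20 ± 0.04, which was 0.00016 with the Cy3 channel alone. Pnpla2, the gene of that lipase, was at 0.18 ± 0.09, its inhibitor G0s2 at 0.60 ± 0.31 and the hormone-sensitive lipase gene Lipe at -0.15 ± 0.05, and none of them passed. Between resveratrol and high-calorie mice Ces1g fell by 0.80 ± 0.20 (SE) and 12 did not pass (median -0.15). In that comparison Pnpla2 was at -0.03, G0s2 at -0.44 and Lipe at 0.14, while without resveratrol replicate 3 Pnpla2 was at 0.02 and G0s2 at -0.12. Between resveratrol and standard-diet mice 0 of 13 passed, with Lipc at -0.20 and Ces1d at -0.25 (median 0.04). The call of Mgll was lost in 15 of 29 other settings, and that of Ces1g against high-calorie mice in 16 of 28.

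Of 20 genes of droplet assembly and other droplet proteins 4 rose on the high-calorie diet, 0 fell and 16 did not pass, with a median of 0.10. Fitm2, which helps droplets bud from the endoplasmic reticulum, rose by 0.53 ± 0.09 (SE) and Pcyt1a, which makes phosphatidylcholine for the droplet surface, by 0.37 ± 0.09, which were 0.26 and 0.19 without background correction. Mettl7b rose by 0.38 ± 0.11 and Fitm1 by 0.18 ± 0.05. Fitm2 fell between high-calorie and resveratrol mice, by 0.43 ± 0.09 (SE), while the sterol synthesis gene Nsdhl rose by 0.53 ± 0.14 and 18 did not pass (median -0.10). Nsdhl was also the 1 gene of 20 that passed between resveratrol and standard-diet mice, at 0.83 ± 0.14 (median 0.03). The calls of Fitm1 and Mettl7b were lost in 16 and 17 of 30 other settings, and that of Nsdhl against high-calorie mice in 23 of 28 and against standard-diet mice in 12 of 27.

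Of 17 regulators of droplet protein genes 3 rose on the high-calorie diet, 0 fell and 14 did not pass, with a median of 0.06. Pparg, the nuclear receptor of fat storage, rose by 0.56 ± 0.09 (SE), Rxrg, a partner receptor, by 0.49 ± 0.05, and Ppara, the receptor of fatty acid oxidation, by 0.43 ± 0.12. The call of Ppara was lost in 17 of 30 other settings, and without background correction Pparg was at 0.34 and Rxrg at 0.19. Pparg was -0.38, -0.58, -0.51, -0.47 and -0.50 on standard diet, 0.19, -0.03, 0.00, 0.02 and 0.19 on the high-calorie diet and -0.15, -0.25, -0.61 and 0.01 with resveratrol. Resveratrol replicate 3 was again the lowest of its group. Between resveratrol and high-calorie mice Rxrg fell by 0.28 ± 0.06 (SE) and 16 did not pass (median -0.10), with Pparg at -0.32 and Ppara at -0.21, or -0.20 and -0.04 without resveratrol replicate 3. Between resveratrol and standard-diet mice 0 of 17 passed, with Rxrg at 0.20 and Esrra at -0.30 (median -0.004).

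**Figure D5:**
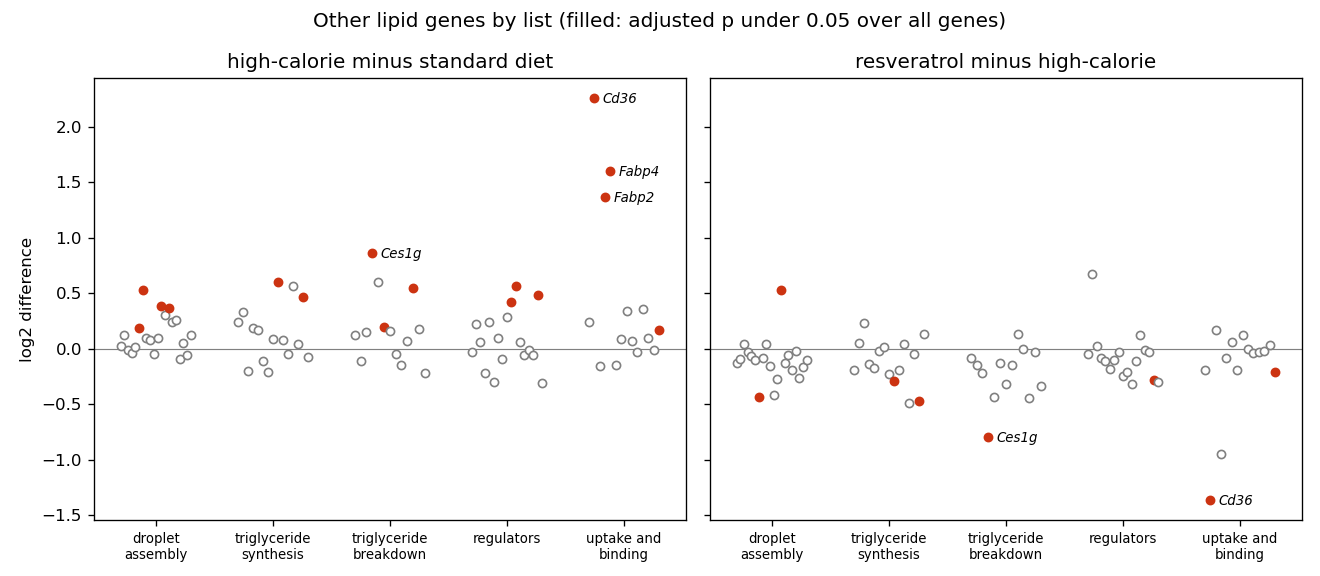
Log2 difference of every tested gene of the 5 lists, between high-calorie and standard-diet mice (left) and between resveratrol and high-calorie mice (right); filled points passed the limma test over all genes. Cd36 stands at 2.26 on the left and -1.37 on the right, and most genes lie near 0.

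Several of the genes above are also markers of fat cells, so markers of fat cells were read in the same livers. Of 13 tested adipocyte markers 2 rose on the high-calorie diet (Cfd, adipsin, by 2.52 ± 0.31 SE, and Fabp4), 1 fell (Retn, by 0.20 ± 0.05 SE) and 10 did not pass, with a median of 0.07. Over all genes 5.37% were called higher and 4.07% lower. Without background correction Cfd was at 1.11. The summed signal of all 14, scaled to each array's 75th percentile, was 149 to 314 on standard diet, 209 to 332 on the high-calorie diet and 89.8 to 240 with resveratrol, so the groups overlapped. Such a sum follows its brightest genes and is no measure of fat cells alone. Car3, 1 of the 14, ranged from -2.28 to 1.08 with resveratrol. Adipoq, the fat cell hormone adiponectin, was 0.01 to 0.48 on standard diet, -0.01 to 0.22 on the high-calorie diet and 0.12 to 0.76 with resveratrol, and differed by -0.09 ± 0.11 (SE) between the first 2 groups. Lep, the leptin gene, was -0.08 to 0.08, 0.00 to 0.16 and -0.07 to 0.07. The brown fat gene Ucp1 was well above background on 1 array of each group. Plin1 is a further marker of fat cells and, as given above, was at -0.08. Cfd was -0.26 to 1.33 on the high-calorie diet and -0.13 to 1.42 with resveratrol, against -2.22 to -1.64 in standard-diet mice, and passed between resveratrol and standard-diet mice at 2.57 ± 0.33 (SE). Retn rose by 0.23 ± 0.05 (SE) between high-calorie and resveratrol mice, where the other 12 did not pass and 3.16% of all genes were called higher. The calls of Retn were lost in 12 of 30 and 15 of 29 other settings. Fabp4 stands in both this list and the uptake list. The part of fat cells in the differences of Cidea, Cidec and Plin4 was not tested.

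Of 9 tested stellate cell markers 6 rose on the high-calorie diet, among them the collagen genes Col3a1 by 0.75 ± 0.10 (SE) and Col1a2 by 0.61 ± 0.08. Acta2 was the 1 that fell, from 0.06 to 0.16 on standard diet and from -0.13 to -0.01 on the high-calorie diet. With the Cy3 channel alone 3 of the 9 rose and 0 fell. In resveratrol mice 4 of the 9 were lower than in high-calorie mice, where 2.22% of all genes were called lower. Col1a2 fell by 0.61 ± 0.08 (SE), and 0 passed against standard-diet mice. With the Cy3 channel alone 0 of the 9 were called lower against high-calorie mice. The summed stellate signal was 19.8 to 25.2 on standard diet, 20.9 to 27.6 on the high-calorie diet and 17.9 to 25.9 with resveratrol. On the high-calorie diet 1 of 12 Kupffer cell markers passed (Ctss, up by 1.08 ± 0.22 SE), as did 1 of 6 cholangiocyte markers (Spp1, up by 0.76 ± 0.17 SE) and 1 of 7 endothelial markers, Pecam1, where 5.37% of all genes were called higher. Pecam1 was well above background on 1 of 5 standard-diet and 5 of 5 high-calorie arrays, and 0 of 6 endothelial markers passed where all 14 arrays had to be well above background. Of 10 hepatocyte markers 2 fell, Ahsg by 0.74 ± 0.18 (SE) and Apoa1 by 0.64 ± 0.17, where 4.07% of all genes were called lower. Between high-calorie and resveratrol mice Csf1r of the Kupffer cell list rose by 0.28 ± 0.06 (SE) and Ahsg by 0.71 ± 0.19, and 0 endothelial or cholangiocyte markers passed. In that comparison 3.16% of all genes were called higher. The call of Apoa1 was lost in 17 of 30 other settings, and that of Ahsg in 9 of 30 on the high-calorie diet and in 22 of 29 against resveratrol mice. Summed Kupffer cell signal was 15.4 to 20.1, 20.2 to 27.5 and 16.6 to 39.5, endothelial 6.65 to 9.07, 7.82 to 8.26 and 6.22 to 8.59, and cholangiocyte 5.15 to 6.76, 7.80 to 10.05 and 5.44 to 11.9, in the order standard-diet, high-calorie and resveratrol. The Kupffer cell and cholangiocyte sums of high-calorie mice lay above those of all standard-diet mice. These sums follow their brightest genes. The median log2 difference between these diets was 0.15 over the Kupffer cell and 0.01 over the cholangiocyte markers. The part of these cells in the differences of the 8 genes was not tested.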

How the data were processed

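Liver RNA of 14 mice was measured on 2-colour Agilent arrays. The deposited files give spot and background intensity in both channels, from Feature Extraction 7.5.1 per the file headers. The authors also deposited a value table of a score, with column means of 0, medians from -0.0497 to 0.00234 and correlations of 0.983 to 0.985 with log2 Cy3, whose scale and direction are unstated. Probes (41174 distinct) were named through RefSeq tables of GRCm38.p6, which matched 20852 to 15940 genes. Signals were corrected with normexp (offset 50) and loess, 576 outlier spots were left out, and the brightest probe stood for each gene. A gene was kept if 4 or more arrays had it well above background in Cy3 (32675 genes, of which 15232 had a matched symbol). The 3 diets were fitted in limma 3.58.1 (R 4.3.3, data.table version 1.17.8), with Benjamini-Hochberg adjustment over all genes. The fit was tested on simulated data.

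Members, the 5 gene lists and 6 marker lists were chosen with earlier results of these data known. Named were all 8 members, from each list up to 4 passing genes with the smallest adjusted p, or 2 where none passed, and Cd36, Pparg, Ppara, Fabp4, Adipoq, Pnpla2, G0s2 and Lipe throughout. For Cidea, Cidec, Plin2 and Plin4 the 3 nearest patterns were named, except 1 gene that is not reported here. Alternatives covered background, normalisation, channel, scores, filters, probes, blocks, weights and left-out arrays. Promoter sequences came from a RefSeq table of GRCm38.p6, with no genome sequence read.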

Additional observations from a re-analysis of the deposited data

Results flagged for a closer look

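Of 24 groups formed by 8 genes in 3 diets, 1 held a value far from the others of its group. The log2 ratio of Cidea in standard-diet replicate 2 was -1.98, while the nearest standard-diet mouse was at -3.13, and the gap was 0.728 of the range of the 5 mice. Chance alone marks about 1 in 20 such groups. Without that mouse the Cidea difference of high-calorie minus standard diet was 4.39, against 4.11 with it. Resveratrol replicate 3 at -3.64 for Cidea, with a gap of 0.788 of the range of its 4 mice, stayed under the limit for a group of that size.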

How the results depend on the processing

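Cidea, Cidec, Plin2 and Plin4 kept their sign in all 30, 29 and 28 other settings of the comparisons high-calorie minus standard diet, resveratrol minus high-calorie and resveratrol minus standard diet. The calls among all genes and members moved more, and unless stated the cause was not tested. For high-calorie minus standard diet, 3083 of all genes were called, and 430 with Cy3 alone, 416 with deposited scores, 1874 with slide series as a block, 7022 with array weights, 819 and 55 within day 1 and 2, and 837 within slide series 2. For resveratrol minus high-calorie, 1760 were called, and 2695 without background correction, 672 with an offset of 1, 685 with processed signals, 120 with median centring, 45 with Cy3 alone, 48 with scores, 445 with day as a block, 672 with slide series as a block, 3059 with array weights and 52 within day 1. Within slide series 1, with fewer arrays, limma called 0, with 3987 at an unadjusted p under 0.05. For resveratrol minus standard diet, 70 were called, and 32, 30, 17, 9, 4, 10 and 167 without background correction, with processed signals, median centring, Cy3 alone, scores, slide series as a block and array weights. The members called lower between resveratrol and high-calorie mice were 3, but 1 with an offset of 1, 1 with processed signals, and 0 with Cy3 alone, with scores, within day 1 and within slide series 1. Those called higher than in standard-diet mice were 1, but 0 with Cy3 alone, scores, slide series as a block or within day 1, and 3 with array weights. Leaving out 1 array gave 1379 (without high-calorie replicate 5) to 5993 (without standard-diet replicate 5), 352 (without resveratrol replicate 1) to 2571 (without standard-diet replicate 2) and 23 to 214 of all genes, and 4 to 5, 1 to 4 and 1 to 4 members, in the same order of comparisons. The values within slide series, and the place of the pool under other processing, were chosen after seeing the data. Pecam1 between high-calorie and standard-diet mice turned to -0.0338 with median centring. The share of calls that were higher was 56.9% between high-calorie and standard-diet mice, against 79% with median centring, 80.7% with Cy3 alone and 80.3% with scores. Between resveratrol and high-calorie mice it was 58.7%, against 25.8%, 31.1% and 33.3%, and between resveratrol and standard-diet mice 58.6%, against 82.4%, 88.9% and 100%.

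With the replicate number as a block, 2882, 409 and 48 of all genes and 5, 2 and 1 members were called in the 3 comparisons. The labels do not say whether the numbers pair the mice. Of 13 same-numbered pairs 4 had a correlation of deviations over 0.1 (range -0.186 to 0.3), and 3 of 13 mice matched their own number best. These correlations cannot decide it, since paired mice need not deviate alike. Precision is limited by the 4 or 5 arrays per diet. For dim spots, among them Cidea and Cidec in standard-diet mice and Cideb in all mice, signal over background limits it as well.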
